A study of Mus musculus with 12 samples.

Results

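Annexins bind membranes when calcium rises, several S100 proteins dock onto annexins, and Sprr1a encodes a protein of cell envelopes. The annexins, S100 proteins and Sprr1a were followed as 9 genes from mouse liver tissue into hepatocyte culture. These were the annexins Anxa1, Anxa2, Anxa3, Anxa5 and Anxa7, the S100 genes S100a6, S100a10 and S100a11, and Sprr1a. They are 9 of the 32285 genes in the deposited count matrices, and 9 of the 43 genes with a symbol beginning with Anxa, S100 or Sprr. They were chosen by name with their levels in these samples already known, so their levels across sample types, cell types and clusters of cultured nuclei are given as a description and not as a test.

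The samples came from 8 wild-type male mice of 10 to 12 weeks, and each mouse gave 3 samples. Their strain was C57BL/6NTac, written as C57BL6J in the labels. Liver was a piece of the median lobe, cut off after the blood had been cleared with calcium-free buffer and before collagenase entered the organ. Cell Suspension was the collagenase-digested, strained and washed cells of the same liver. Primary Hepatocytes were those cells after 24 hours on collagen, plated in a medium with serum and then kept in a low-serum medium with insulin (1 nM) and dexamethasone (1 µM), and they were detached with trypsin. There were thus 8 samples in each of the 3 groups, and all of them, tissue included, had been perfused. Nuclei, not whole cells, were sequenced from the 3′ end, and 53467 nuclei were analysed (20024 from Liver, 18394 from Primary Hepatocytes and 15049 from Cell Suspension). Nuclei of 4 samples each were mixed into 6 pools, and each pool was loaded as a separate reaction before sequencing. Primary Hepatocytes were absent from pools 1 and 6, Liver was absent from pools 3 and 4, and pools 2 and 5 had all 3 kinds. Of 53128 different barcodes, 337 (0.634%) occurred in more than 1 pool.

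Annexins are soluble proteins that bind phospholipid membranes when calcium rises, and they take part in membrane repair, vesicle fusion and secretion. S100 proteins are small proteins, most of which bind calcium, and several of them dock onto annexins. S100a10 binds Anxa2 and holds it at the plasma membrane, where the pair binds plasminogen, and S100a11 binds Anxa1. Sprr1a encodes a small proline-rich protein that transglutaminases link into the cornified envelope of squamous epithelia, and it is also known from injured neurons and stressed heart muscle. The resting hepatocyte is not a squamous cell, and in liver several annexins are better known from non-parenchymal cells.

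Promoter windows of RefSeq, 250 bases before to 50 bases after the start of a transcript on GRCm38.p6, were matched for 7 of the 9 genes. Anxa3 and S100a10 were not among them. The 3 windows below are shown because they belong to genes that differed most between tissue and culture and because they are the windows among these genes that hold the AP-1 motif TGANTCA. Each is written 5′ to 3′ on the strand of the gene, and capitals mark TGANTCA and the TATA box TATAAA.
Sprr1a (chr3:92485832-92486131, minus strand): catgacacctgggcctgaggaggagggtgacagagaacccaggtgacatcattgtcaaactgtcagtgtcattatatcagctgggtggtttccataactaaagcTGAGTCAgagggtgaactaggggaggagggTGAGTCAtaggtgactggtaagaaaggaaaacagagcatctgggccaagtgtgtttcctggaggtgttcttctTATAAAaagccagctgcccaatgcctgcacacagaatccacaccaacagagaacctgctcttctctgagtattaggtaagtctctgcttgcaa
S100a11 (chr3:93520246-93520545, plus strand): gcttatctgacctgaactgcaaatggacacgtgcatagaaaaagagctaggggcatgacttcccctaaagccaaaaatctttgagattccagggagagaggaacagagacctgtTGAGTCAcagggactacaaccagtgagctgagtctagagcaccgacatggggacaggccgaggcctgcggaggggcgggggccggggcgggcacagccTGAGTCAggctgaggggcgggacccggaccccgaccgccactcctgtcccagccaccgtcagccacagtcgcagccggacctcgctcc
Anxa2 (chr9:69453433-69453732, plus strand): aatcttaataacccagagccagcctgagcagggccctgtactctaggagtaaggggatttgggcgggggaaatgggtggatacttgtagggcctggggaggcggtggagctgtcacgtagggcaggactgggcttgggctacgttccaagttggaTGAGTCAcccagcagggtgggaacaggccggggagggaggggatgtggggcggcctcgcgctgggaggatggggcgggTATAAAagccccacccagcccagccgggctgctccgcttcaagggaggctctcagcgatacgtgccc
Counting the base directly before the start as -1, TGANTCA began at -146 and -116 in Sprr1a, at -136 and -38 in S100a11 and at -95 in Anxa2. On both strands, this motif was found in 3 of 8 windows of the 7 genes and in 7.81% of 32851 windows in all. TATAAA began at -43 in Sprr1a, -17 in Anxa2 and -32 in Anxa1, and 13.6% of all windows hold it. The CRE motif TGACGTCA was found in none of the 8 windows and in 1.79% of all windows. The TEAD motif CATTCC was found in 1 of the 8, that of Anxa1, and in 14.7% of all. Anxa7 has more than 1 window, at chr14:20479892-20480191 and chr14:20480084-20480383, and these overlap. The GC box GGGCGG was found in windows of Anxa2, Anxa7 and S100a11 and in 35.7% of all. These matches describe letters in the window.

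Levels are given as counts-per-million values (CPM), the gene's UMIs (unique molecular identifiers, each marking 1 captured RNA molecule) over the UMIs of all genes in the nuclei of that cell type and sample. There were 15000 hepatocyte nuclei of Liver, 14833 of Primary Hepatocytes and 12634 of Cell Suspension. They held 6860168 to 29018248 UMIs per sample in Liver, 9596129 to 20300379 in Primary Hepatocytes and 2065229 to 17389720 in Cell Suspension, so low levels were measured least well in Cell Suspension. The summed level of 10 hepatocyte marker genes in these nuclei had a median of 16030 CPM in tissue, 18969 CPM in suspension and 4370 CPM in culture, and none of the 10 was at 0. In Primary Hepatocytes this sum was 3197 to 7242 CPM in hepatocyte nuclei and 1343 to 4887 CPM in endothelial nuclei, also with none at 0. These ranges overlap, so the sum cannot check the hepatocyte label in culture. The marker lists of 6 other cell types (10 genes each, 8 for mesothelial cells) were also detected, with 0 genes at 0 in any of the 3 kinds of sample. In hepatocyte nuclei the summed level of the endothelial markers was 32.0 to 50.8 CPM in Liver and 108 to 169 CPM in Primary Hepatocytes, and that of the mesothelial markers was 2.52 to 7.94 CPM and 5.18 to 9.28 CPM. The Kupffer markers went the other way, from 312 to 1615 CPM in Liver to 34.2 to 71.5 CPM in Primary Hepatocytes. The leukocyte markers were 14.2 to 35.9 CPM and 42.7 to 70.4 CPM, and the stellate markers (111 to 349 CPM and 129 to 679 CPM) and biliary markers (135 to 197 CPM and 153 to 230 CPM) overlapped. The part of these other cell types in the values below was not tested.

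Anxa2, which binds S100a10 and links membranes to actin, went from about 1 CPM in hepatocyte nuclei of tissue to nearly 200 CPM in culture. In Liver its level was 0.851, 0.875, 0.376, 2.59, 1.96, 0.779, 1.04 and 1.03 CPM in mice 1 to 8. In Cell Suspension it was 7.80, 4.72, 3.999, 4.25, 2.95, 1.13, 1.45 and 5.97 CPM in the same order, and in Primary Hepatocytes 207, 190, 243, 179, 171, 149, 196 and 205 CPM. The lowest cultured sample, mouse 6, lay far above every uncultured one. The Cell Suspension and Liver ranges overlapped, but each mouse had more Anxa2 in Cell Suspension than in its own Liver, 8 of 8. The means were 1.19 ± 0.722, 4.03 ± 2.23 and 193 ± 27.9 CPM (SD, n = 8 each).

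Anxa3, a further annexin, showed the same order of sample types with more spread among the cultures. Its level was 0.376 to 2.52 CPM in Liver (median 1.13) and 1.24 to 6.92 CPM in Cell Suspension (median 5.14). In Primary Hepatocytes it was 121, 98.9, 220, 107, 102, 59.3, 210 and 194 CPM in mice 1 to 8. The cultures of mice 3, 7 and 8 stood above the other 5, and mouse 6 was again lowest.

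Sprr1a, the envelope precursor, was not seen at all in the hepatocyte nuclei of 6 of the 8 Liver samples, and it was 0.770 CPM in mouse 4 and 1.14 CPM in mouse 5. In Cell Suspension it was 4.65, 2.20, 2.12, 3.51, 1.41, 0.113, 0 and 1.87 CPM in mice 1 to 8. In Primary Hepatocytes it was 70.6, 76.4, 93.6, 73.7, 58.4, 33.1, 85.2 and 86.3 CPM. Every culture was above every other sample, with mouse 3 highest and mouse 6 lowest.

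Anxa5, which binds phosphatidylserine on membranes, was already present in tissue. Its level was 6.396 to 13.8 CPM in Liver (median 10.3), 7.21 to 22.8 CPM in Cell Suspension (median 14.7) and 144 to 192 CPM in Primary Hepatocytes (median 159). S100a10, the partner of Anxa2, was 6.06 to 12.4 CPM in Liver (median 10.3), 4.85 to 14.5 CPM in Cell Suspension (median 9.57) and 80.5 to 109 CPM in Primary Hepatocytes (median 90.1). For both genes the cultures lay apart from the other 2 kinds of sample, which overlapped each other. Cell Suspension was above Liver of the same mouse in 8 of 8 mice for Anxa5 and in 2 of 8 for S100a10.

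S100a11 was 0.418 to 1.17 CPM in Liver (median 0.725), 0 to 2.67 CPM in Cell Suspension and 12.7 to 42.7 CPM in Primary Hepatocytes (median 27.2). S100a6, another small calcium sensor, stayed low everywhere, at 0 to 0.490 CPM in Liver, 0 to 0.513 CPM in Cell Suspension and 0.523 to 2.08 CPM in Primary Hepatocytes. Anxa1, known for its anti-inflammatory action, rested on 7, 6 and 9 UMIs in all hepatocyte nuclei of tissue, suspension and culture, and its 3 ranges overlapped. No sample had Anxa1 above 0.373 CPM in hepatocyte nuclei, and a change within these low levels was not detectable at this depth.

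Anxa7, an annexin of membrane fusion and granule secretion, was well detected in tissue. It was 45.6 to 80.0 CPM in Liver (median 52.1), 30.8 to 65.6 CPM in Cell Suspension (median 45.1) and 99.7 to 127 CPM in Primary Hepatocytes (median 110). Each mouse had less Anxa7 in Cell Suspension than in its own Liver, 8 of 8, and the cultures overlapped neither.

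**Figure D1:**
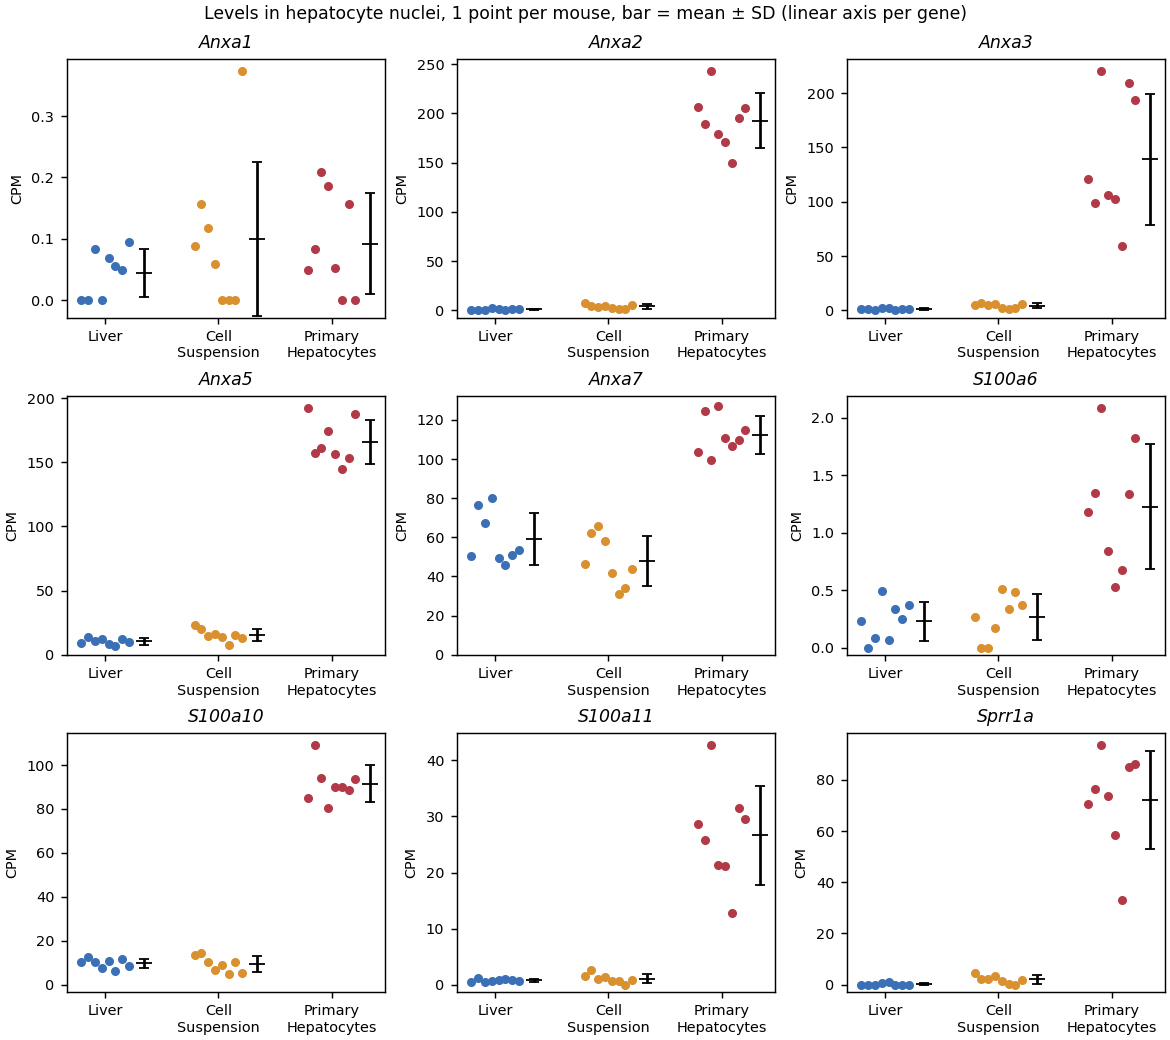
Level of each of the 9 genes in hepatocyte nuclei in CPM (vertical axes, linear, 1 scale per gene) in Liver, Cell Suspension and Primary Hepatocytes. Each point is 1 mouse and bars are mean ± SD (n = 8). The cultured points stand above all Liver points for 8 of the 9 genes, the exception being Anxa1, which is near 0 throughout.

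The ranges of Primary Hepatocytes and Liver did not overlap for 8 of the 9 genes, all but Anxa1, with culture higher, and 26.3% of the 26521 genes tested in hepatocyte nuclei had culture above Liver without overlap. None of the 9 was higher in Cell Suspension than in Liver without overlap, against 0.863% of all genes. The genes were picked for this contrast, so nothing is read from these counts.

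Fold changes were taken from a fit over all genes with edgeR (TMM normalization, quasi-likelihood), in which library sizes are rescaled. The rescaling makes log2 fold changes of Primary Hepatocytes over Liver 0.54 lower than the ratio of the plain CPM. On this scale the log2 fold change of Primary Hepatocytes over Liver was 7.31 (SE 0.56) for Sprr1a, 6.76 (SE 0.32) for Anxa2, 6.19 (SE 0.37) for Anxa3, 4.64 (SE 0.27) for S100a11, 3.48 (SE 0.18) for Anxa5, 2.70 (SE 0.19) for S100a10, 1.86 (SE 0.39) for S100a6, 0.39 (SE 0.15) for Anxa7 and 0.16 (SE 0.64) for Anxa1. That of Sprr1a starts from 6 Liver samples at 0 and depends on the 2 that are not: it was 8.87 without mouse 5. With the pool as a covariate the log2 fold change was 5.66 for Sprr1a, 5.61 for Anxa2, 5.20 for Anxa3, 3.04 for Anxa5, 4.18 for S100a11 and 2.27 for S100a10. That of Anxa7 was -0.091 with the pool as a covariate, and it was 0.21 to 0.52 under the other alternatives tried.

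Over Cell Suspension, the log2 fold change of Primary Hepatocytes was 4.80 (SE 0.30) for Anxa2, 4.26 (SE 0.34) for Anxa3, 4.25 (SE 0.46) for Sprr1a, 3.78 (SE 0.28) for S100a11, 2.74 (SE 0.18) for Anxa5, 2.61 (SE 0.19) for S100a10, 1.58 (SE 0.46) for S100a6, 0.51 (SE 0.15) for Anxa7 and -0.76 (SE 0.69) for Anxa1. Both contrasts share the Primary Hepatocytes samples. At an adjusted p under 0.05, 8 of the 9 were higher and 0 lower in each of them. Over the alternatives that kept all mice, 7 to 8 were higher in each. Without mouse 1, 5, 6, 7 or 8, 7 were higher against Liver. Of all genes, 27.4% were higher and 26.7% lower against Liver, and 27.6% were higher and 24.0% lower against Cell Suspension. These counts describe how the genes were picked.

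Between Cell Suspension and Liver, the log2 fold change was 3.06 (SE 0.62) for Sprr1a, 1.97 (SE 0.32) for Anxa2, 1.92 (SE 0.37) for Anxa3, 0.86 (SE 0.34) for S100a11, 0.74 (SE 0.17) for Anxa5, 0.09 (SE 0.19) for S100a10 and -0.12 (SE 0.15) for Anxa7. For Sprr1a it was 4.66 without mouse 5. At an adjusted p under 0.05, 4 of the 9 were higher and 0 lower, against 7.69% of all genes higher and 13.8% lower. Over the alternatives that kept all mice, 3 to 5 were higher and 0 to 1 lower. The genes were chosen with these levels already known, so nothing is read from these counts.

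These differences moved with the pool into which a sample was mixed. Sprr1a had 0 UMIs among 97311908 in hepatocyte nuclei of the 6 Liver samples in pools without Primary Hepatocytes, which allows a level of up to 0.0308 CPM (3 counts, counting error only), and 44 UMIs in the 2 Liver samples that shared a pool with them. In Cell Suspension it had 1 UMI in the 2 samples of pools without Primary Hepatocytes and 167 UMIs in the other 6. Apart from that 1 UMI, each Sprr1a UMI of uncultured hepatocyte nuclei came from a pool that also held cultured nuclei.

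Anxa2 in Liver was 0.825 ± 0.242 CPM (SD, n = 6) in pools without Primary Hepatocytes and 2.28 ± 0.441 CPM (n = 2) in pools with them. In Cell Suspension it was 1.29 ± 0.231 CPM (n = 2) and 4.95 ± 1.71 CPM (n = 6). Anxa3 had 0.938 ± 0.348 and 2.24 ± 0.394 CPM in Liver, and 1.83 ± 0.835 and 5.10 ± 1.75 CPM in Cell Suspension, in the same order. Anxa5 in Liver was alike in both kinds of pool, at 10.4 ± 2.59 and 10.3 ± 3.10 CPM, and in Cell Suspension it was 11.1 ± 5.51 and 16.6 ± 4.01 CPM. Anxa7 and S100a11 in Cell Suspension were also lower in pools without Primary Hepatocytes, Anxa7 at 32.3 ± 2.21 against 53.0 ± 10.2 CPM and S100a11 at 0.338 ± 0.478 against 1.32 ± 0.752 CPM. In Liver the 2 kinds of pool gave 57.3 ± 11.9 and 64.7 ± 21.7 CPM for Anxa7 and 0.739 ± 0.304 and 0.728 ± 0.238 CPM for S100a11.

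Barcodes with few UMIs, between 10 and 100, which mostly hold free RNA rather than a nucleus, had Anxa2 at 13.05, 2.59, 86.5, 121, 95.5 and 10.97 CPM in pools 1 to 6 and Sprr1a at 0, 7.78, 72.0, 34.7, 29.4 and 0 CPM. For both genes the 3 lowest values were those of pools 1 and 6, without cultured nuclei, and pool 2. They rest on few UMIs: 3, 1 and 1 for Anxa2 and 0, 3 and 0 for Sprr1a in pools 1, 2 and 6. In pools 1 and 6 alone, with 2 Cell Suspension and 6 Liver samples, the log2 fold change of Cell Suspension over Liver was 0.65 (SE 0.48) for Anxa2, 0.85 (SE 0.52) for Anxa3, 0.04 (SE 0.32) for Anxa5, -0.36 (SE 0.70) for S100a11, -0.48 (SE 0.33) for S100a10 and -0.78 (SE 0.22) for Anxa7, and Sprr1a had too few counts for the fit. Within the 4 pools that held both kinds, the log2 ratio of Cell Suspension to Liver was 0.84, 0.79, 1.12 and 0.43 for Anxa2 and 1.54, 0.92, 1.25 and 0.25 for Anxa3 (pools 1, 2, 5 and 6). In the same order it was 0.45, 0.08, 0.98 and -0.44 for Anxa5, 0.01, -0.04, -0.75 and -0.98 for S100a10 and -0.75, -0.90, 0.23 and -0.90 for Anxa7. For S100a11 it was 0.31, 0.56 and -0.34 in pools 2, 5 and 6, with the Cell Suspension sample of pool 1 at 0. The part of free RNA from cultured nuclei in the Cell Suspension values was not tested. The hepatocyte sums of Cell Suspension also held 45 nuclei annotated as cultured. Nuclei annotated against their sample type were left out in 1 of the alternative fits.

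**Figure D2:**
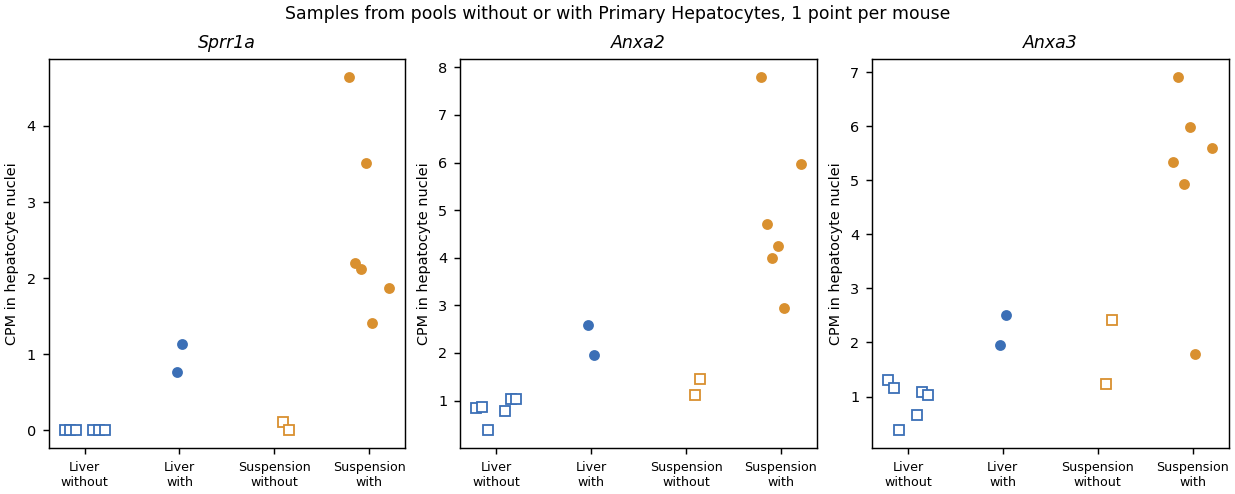
Levels of Sprr1a, Anxa2 and Anxa3 in hepatocyte nuclei in CPM (vertical axes) in Liver (blue) and Cell Suspension (orange), 1 point per mouse, split by whether the sample's pool held no Primary Hepatocytes (open squares, n = 6 and 2) or held them (filled circles, n = 2 and 6). For Sprr1a the open squares lie at or near 0 and each filled circle lies above them.

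Single nuclei were also compared, after each hepatocyte nucleus had been thinned to 1000 UMIs so that depth was equal (508, 474 and 83 shallower nuclei of Liver, Cell Suspension and Primary Hepatocytes were left out). Anxa2 had a UMI in 0.137% of Liver nuclei, 0.591% of Cell Suspension nuclei and 16.3% ± 2.46 (SD, n = 8) of Primary Hepatocytes nuclei, and unthinned in 1.04%, 2.09% and 55.5%. Sprr1a had a UMI in 0.019%, 0.256% and 4.88% ± 1.19 of the thinned nuclei. As a background, Sprr1a had a UMI in 1.06% ± 1.16 of thinned endothelial nuclei of Primary Hepatocytes, whose median depth before thinning was 1703 UMIs against 6443 UMIs in hepatocyte nuclei. The same endothelial nuclei had an Anxa2 UMI in 7.38% ± 1.52, and those of Liver in 3.49% ± 1.65, so endothelial nuclei give no background free of Anxa2. UMIs of 2 or more of the 9 genes were found in 14.1% ± 3.11 of thinned Primary Hepatocytes nuclei, 0.372% ± 0.277 of Cell Suspension nuclei and 0.095% ± 0.064 of Liver nuclei, with no background share computed. In culture, 52.2% ± 4.16 of thinned nuclei still had none.

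The matrices separate spliced from unspliced RNA. In hepatocyte nuclei of Primary Hepatocytes, 84.1% ± 3.36 (SD, n = 8) of the UMIs of Sprr1a were spliced, against 25.8% of the UMIs of all genes. S100a11 went from 65.4% ± 19.8 spliced in Liver to 27.8% ± 3.07 in culture, and S100a10 from 53.6% ± 8.60 to 39.5% ± 3.85, while the share over all genes was 17.9% in Liver. Unspliced UMIs alone gave log2 fold changes over Liver of 5.88 for S100a11 and 3.20 for S100a10, and spliced UMIs alone 3.18 and 2.00. Anxa2 was 18.2% ± 13.02 spliced in Liver and 13.8% ± 1.54 in culture, and Anxa3 11.7% ± 8.09 and 11.8% ± 1.40. For Anxa2 and Anxa3 unspliced UMIs alone gave log2 fold changes over Liver of 7.04 and 6.17. Anxa3 overlaps the same-strand gene Gm42603, so its intronic reads could in part belong to the neighbour. Anxa2 and Anxa1 overlap the opposite-strand genes Gm16144 and 1500015L24Rik, whose part was not tested. Anxa1 had 0% unspliced UMIs in hepatocyte nuclei of each kind of sample.

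The authors' clusters divide the cultured hepatocyte nuclei into clusters 0, 1, 14 and 17, with 5961, 5846, 1682 and 1271 nuclei of Primary Hepatocytes. The clusters were made from the expression of these same nuclei, so the differences between them are a description. Cluster 0 held most Sprr1a, at 141 ± 32.3 CPM (SD over 8 mice), and cluster 1 least, at 7.67 ± 3.99 CPM, with clusters 14 and 17 between them at 42.1 ± 15.9 and 39.9 ± 24.1 CPM. Cluster 0 was highest and cluster 1 lowest in 8 of 8 mice.

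Anxa3 was 255 ± 73.8 CPM in cluster 0, 44.8 ± 19.9 CPM in cluster 1, 51.4 ± 21.2 CPM in cluster 14 and 13.6 ± 9.86 CPM in cluster 17. Anxa5 was 232 ± 25.5, 129 ± 13.3, 116 ± 11.4 and 45.8 ± 11.95 CPM in the same order. For both annexins cluster 0 was highest and cluster 17 lowest in 8 of 8 mice, and clusters 1 and 14 lay within each other's spread. S100a11 was also highest in cluster 0 in 8 of 8 mice, at 36.3 ± 10.47 CPM, with 17.9 to 21.2 CPM in the other 3.

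Anxa2 was spread more evenly than Sprr1a, Anxa3 and Anxa5. It was 248.5 ± 32.1 CPM in cluster 0, 141 ± 24.3 CPM in cluster 1, 226 ± 31.6 CPM in cluster 14 and 111 ± 24.6 CPM in cluster 17. Cluster 0 led in 5 mice and cluster 14 in 3. S100a10 did not follow its partner: it was 104 ± 18.8, 78.7 ± 10.2, 99.7 ± 14.1 and 106 ± 17.7 CPM, lowest in cluster 1 in 7 of 8 mice and alike in the other 3 within their spread. Anxa7 ran the other way from Anxa3, with 193 ± 40.4 CPM in cluster 17, highest in 8 of 8 mice, and 99.1 to 117 CPM in the others.

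Markers of cell types moved with these clusters. The summed hepatocyte markers were 4300, 5063, 4078 and 7284 CPM in clusters 0, 1, 14 and 17, so cluster 17, the lowest in Anxa2, Anxa3 and Anxa5, was the highest in hepatocyte markers. The summed biliary markers were 310, 91.8, 158 and 92.0 CPM, the endothelial ones 102, 112, 305 and 84.3 CPM, and the stellate ones 196, 396, 236 and 565 CPM, highest in cluster 17 as well. Median depth was 7372, 6037, 5703.5 and 4871 UMIs per nucleus. The part of these in the cluster values was not tested.

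Cluster 0 made up 21.1% of the cultured hepatocyte nuclei of mouse 6, the smallest share of the 8 mice, and 31.8% to 55.4% in the others. Cluster 17 made up 20.2% of them, the largest share of the 8 mice, against 4.47% to 14.1% in the others. Mouse 6 was also the culture with the least Sprr1a, Anxa2, Anxa3, Anxa5 and S100a11 over all hepatocyte nuclei. Mouse 1, with the largest share, was the highest culture for Anxa5 only among these 5 genes, at 192 CPM.

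**Figure D3:**
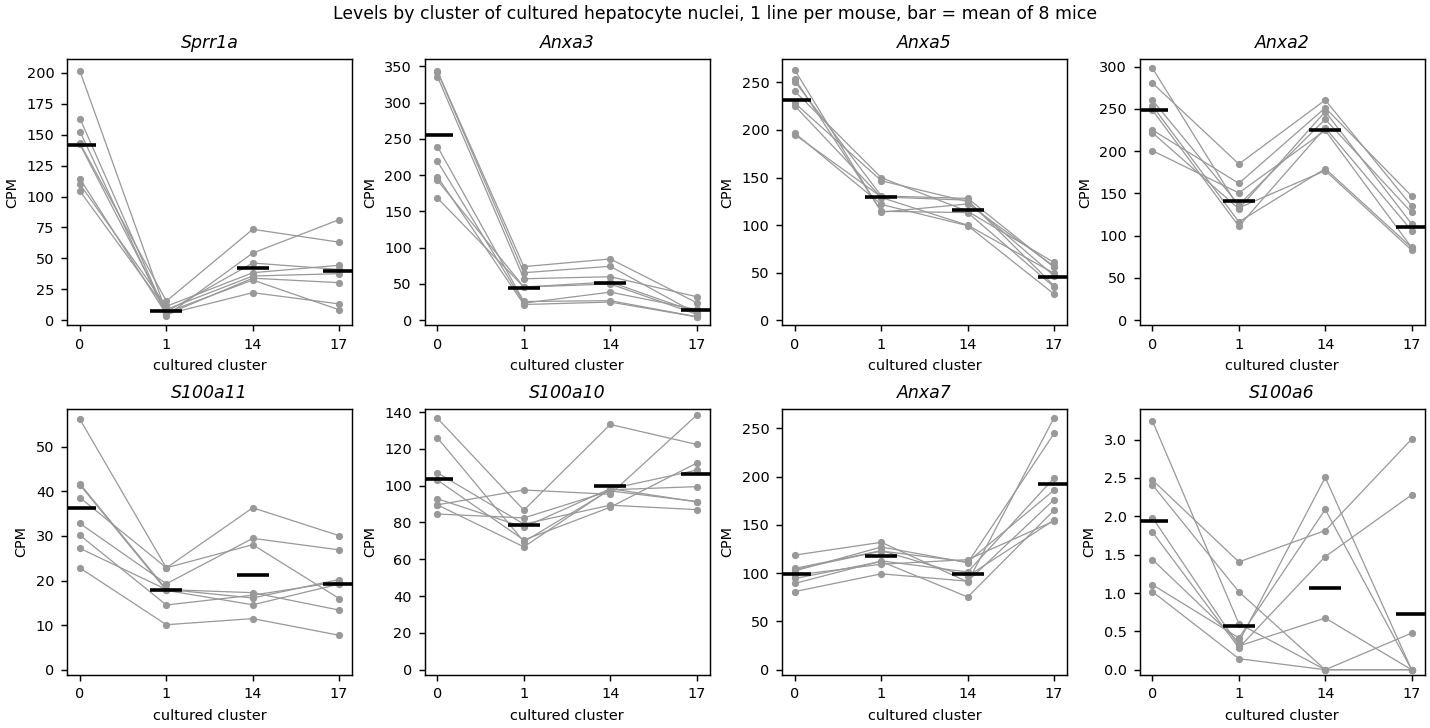
Levels in CPM (vertical axes) in the authors' clusters 0, 1, 14 and 17 of cultured hepatocyte nuclei of Primary Hepatocytes, for 8 genes without Anxa1, with 1 grey line per mouse and a black bar at the mean (n = 8). Sprr1a, Anxa3, Anxa5 and S100a11 peak in cluster 0 in each mouse, and Anxa7 in cluster 17.

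In Liver, Anxa2, Anxa3, Anxa5 and S100a11 had a higher mean level in endothelial, Kupffer and stellate nuclei than in hepatocytes. Anxa2 was 99.5 ± 26.98 CPM in stellate nuclei, 92.6 ± 36.3 CPM in mesothelial-like nuclei (n = 4 samples, SD), 36.0 ± 8.99 CPM in endothelial nuclei, 19.5 ± 13.5 CPM in Kupffer nuclei, 18.7 ± 15.6 CPM in leukocytes and 1.19 CPM in hepatocytes. Stellate and mesothelial-like nuclei were within each other's spread, as were Kupffer nuclei and leukocytes. Each cultured hepatocyte sample but that of mouse 6 (149 CPM) was above the highest stellate sample of Liver, 150.3 CPM.

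Anxa3 was 224 ± 77.5 CPM in mesothelial-like nuclei, 126 ± 48.2 CPM in Kupffer nuclei, 109 ± 16.8 CPM in endothelial nuclei, 51.1 ± 31.1 CPM in stellate nuclei and 4.30 ± 8.08 CPM in leukocytes, against 1.26 CPM in hepatocytes. Kupffer and endothelial nuclei did not differ beyond their spread, and leukocytes and hepatocytes did not either. Anxa5 was 67.9 ± 10.9 CPM in endothelial, 49.6 ± 21.6 CPM in mesothelial-like, 46.9 ± 13.4 CPM in Kupffer and 42.3 ± 11.9 CPM in stellate nuclei, and 10.4 CPM in hepatocytes. The mesothelial-like, Kupffer and stellate values were within each other's spread, and endothelial nuclei stood above stellate nuclei by more than both SDs. Its 1 cholangiocyte sum stood at 323 CPM on 19 UMIs.

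S100a6 was 94.1 ± 43.0 CPM in mesothelial-like nuclei, 17.6 ± 17.4 CPM in leukocytes and under 3 CPM elsewhere. S100a10 was 34.4 ± 25.7 CPM in leukocytes, 26.9 ± 9.83 CPM in endothelial nuclei, 25.4 ± 10.8 CPM in mesothelial-like nuclei, 17.4 ± 6.61 CPM in stellate nuclei, 9.67 ± 2.17 CPM in hepatocytes and 9.35 ± 7.39 CPM in Kupffer nuclei, and neighbours in this order were within each other's spread. S100a11 was 15.8 ± 11.5 CPM in leukocytes, 15.6 ± 6.77 CPM in mesothelial-like nuclei, 13.5 ± 6.71 CPM in stellate nuclei, 4.42 ± 2.59 CPM in endothelial nuclei and 2.45 ± 2.98 CPM in Kupffer nuclei, against 0.736 ± 0.273 CPM in hepatocytes. Anxa1 was at its highest in mesothelial-like nuclei, 19.0 ± 8.90 CPM on 8 UMIs. The mean of Sprr1a was between 0 and 1.45 CPM in these cell types of Liver, each on 8 UMIs or fewer outside hepatocytes.

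Anxa7 was the exception, with hepatocytes among its higher cell types: 59.2 ± 13.4 CPM in hepatocytes, 58.3 ± 5.95 CPM in endothelial nuclei and 48.6 ± 12.1 CPM in stellate nuclei, which did not differ beyond their spread, 105 ± 24.6 CPM in mesothelial-like nuclei and 26.5 ± 8.29 CPM in Kupffer nuclei.

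**Figure D4:**
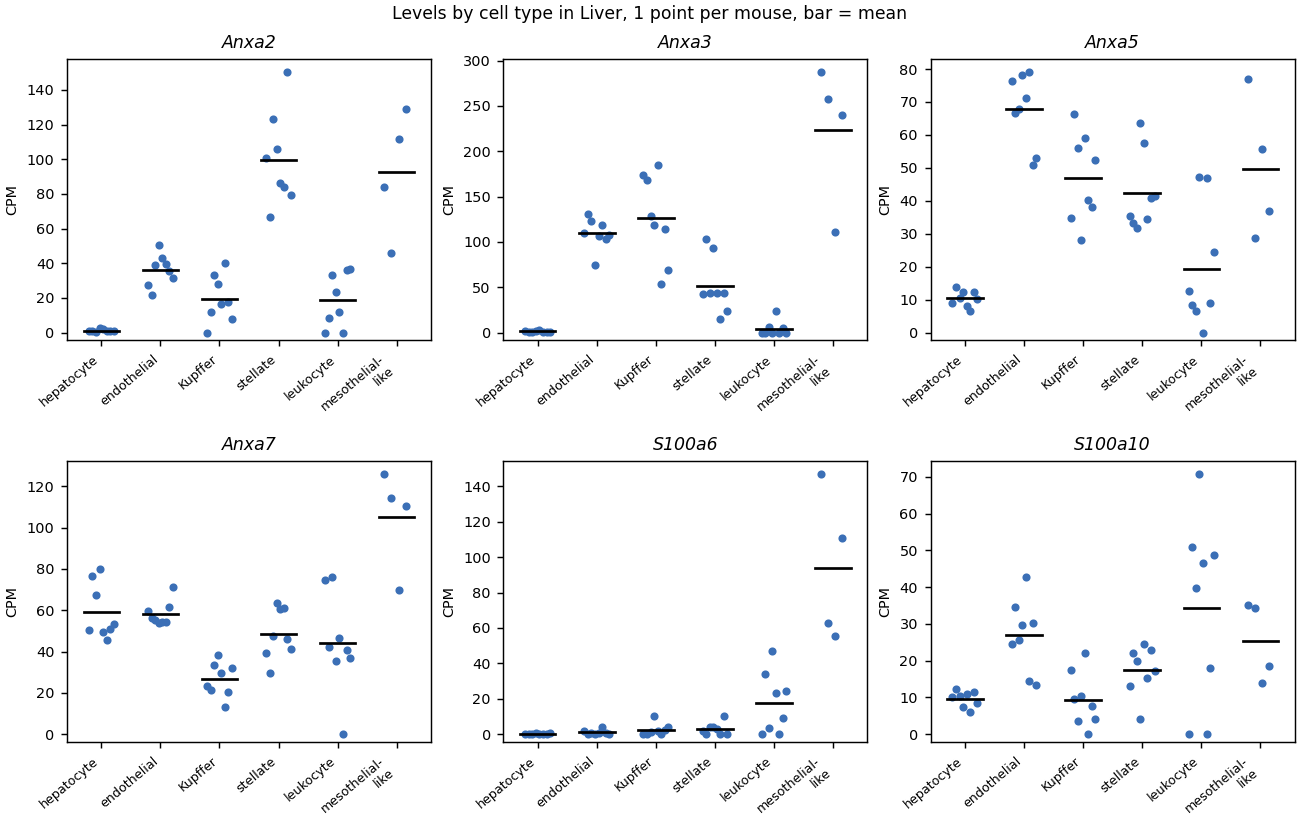
Levels of Anxa2, Anxa3, Anxa5, Anxa7, S100a6 and S100a10 by cell type in Liver in CPM (vertical axes), 1 point per mouse, with a bar at the mean (n = 8 mice, 4 for mesothelial-like). Hepatocytes have the lowest mean for Anxa2 and Anxa3 and lie near endothelial nuclei for Anxa7.

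Endothelial nuclei (2474 of Liver, 1809 of Primary Hepatocytes and 1152 of Cell Suspension) allow the same genes to be followed in another cell type that was carried over into culture. Anxa2 was 36.0 ± 8.99, 29.5 ± 14.1 and 91.0 ± 15.6 CPM (SD, n = 8) in the 3 kinds of sample, and the cultures did not overlap Liver. Anxa3 went the other way from hepatocytes, at 109 ± 16.8, 83.2 ± 37.2 and 82.2 ± 22.9 CPM. Its log2 fold change of culture over Liver was -0.61 (SE 0.19), where that of Anxa2 was 1.18 (SE 0.19) and that of S100a11 1.67 (SE 0.36).

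Sprr1a was 0.602, 4.96 and 20.2 ± 8.81 CPM in endothelial nuclei (8, 11 and 61 UMIs), against 72.1 ± 19.1 CPM in hepatocyte nuclei of culture. The 10 hepatocyte markers summed to a median of 3142 CPM in endothelial nuclei of Liver and 3084 CPM in those of Primary Hepatocytes, where hepatocyte nuclei had 16030 and 4370 CPM. The part of hepatocyte RNA in the endothelial values was not tested. At an adjusted p under 0.05, 5 of 8 tested genes were higher in culture and 1 was lower, where 15.4% of 18279 genes were higher and 18.4% lower. Over the alternatives 2 to 6 were higher and 0 to 1 lower. The lower one, Anxa3, lost its call with RLE normalization (-0.46), with the pool as a covariate (-0.41), on spliced UMIs alone (-0.21) and without mouse 2 (-0.45), and S100a11 was 0.59 with the pool as a covariate. Between Cell Suspension and Liver 0 of the 8 passed the threshold with edgeR, and 2 had an unadjusted p under 0.05. Of all genes 2.03% were called higher and 1.87% lower. The same held under the alternatives tried, DESeq2 included, except that Sprr1a passed without mouse 5 (log2 fold change 4.23). The log2 fold changes of Cell Suspension over Liver included 2.13 (SE 0.81) for Sprr1a and 1.60 (SE 0.73) for Anxa1. The genes were chosen with their levels by cell type already known, so nothing is read from the counts in endothelial nuclei.

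Stellate nuclei of Primary Hepatocytes held Anxa2 at 224 ± 99.0 CPM and Anxa5 at 139 ± 50.6 CPM, against 99.5 ± 26.98 and 42.3 ± 11.9 CPM in Liver. These were 192 nuclei of Primary Hepatocytes and 880 of Liver. Their summed stellate markers had a median of 4958 CPM in Primary Hepatocytes and 18765 CPM in Liver, and their endothelial markers 524 and 316 CPM. Their hepatocyte markers had a median of 2560 CPM in Primary Hepatocytes and 3509 CPM in Liver, where hepatocyte nuclei had 4370 and 16030 CPM. The part of hepatocyte and endothelial RNA in the stellate values was not tested. A separate cluster, cluster 8, had 1450 of its 2321 nuclei from Primary Hepatocytes. In culture it had 189 CPM of Anxa2 and 64.7 CPM of Sprr1a, near the values of hepatocyte nuclei. Its median depth there was 2565 UMIs per nucleus, against 4871 to 7372 in the hepatocyte clusters, 1351 in cluster 12 and 1984 in cluster 27. Its hepatocyte markers summed to a median of 7001 CPM in Primary Hepatocytes, where hepatocyte nuclei had 4370 CPM. Whether its nuclei are hepatocytes was not tested.

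Among the 34 other genes of the 3 families, 22 were tested in hepatocyte nuclei. Between Primary Hepatocytes and Liver 5 rose and 4 fell, with a median log2 fold change of 0.36, where that of all genes was 0.04, 27.4% rose and 26.7% fell. Over the alternatives that kept all mice, 3 to 6 rose and 4 fell, and 3 rose without mouse 7. The families were chosen with earlier results of these data known, so these counts are a description. Anxa4, a phospholipid-binding annexin of epithelia, rose from 36.0 ± 6.13 to 169 ± 23.6 CPM (log2 fold change 1.70, SE 0.12, adjusted p = 4.42e-13, edgeR). Anxa9 rose from 5.38 to 19.7 CPM (1.34, SE 0.15, adjusted p = 9.57e-09). Anxa6, an annexin of endocytic vesicles, fell from 59.7 ± 13.4 to 48.3 ± 9.57 CPM (-0.84, SE 0.14, adjusted p = 9.80e-06), and Anxa11 from 28.9 ± 4.93 to 25.5 ± 3.88 CPM (-0.71, SE 0.12, adjusted p = 1.03e-05), though the plain CPM of both overlapped. Over the alternatives tried, Anxa6 stayed between -0.87 and -0.69 and Anxa11 between -0.83 and -0.52. All of these rescale library sizes, and with TMM the log2 fold changes are 0.54 lower than the ratio of the plain CPM.

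Anxa4 and Anxa9 fell from Liver to Cell Suspension before they rose, with log2 fold changes of -0.40 (adjusted p = 0.0184, edgeR) and -0.60 (adjusted p = 0.0129). The call was lost for Anxa4 with RLE normalization, on unspliced UMIs alone and without mouse 4 (-0.35, adjusted p = 0.0611) or mouse 7 (-0.37, adjusted p = 0.0545), and for Anxa9 with the pool as a covariate, on spliced UMIs alone and without mouse 1 (-0.51, adjusted p = 0.0625) or mouse 6 (-0.55, adjusted p = 0.0513). From Liver to Cell Suspension 0 of the 22 rose and 3 fell, against 7.69% and 13.8% of all genes, while their median was 0.22, so the median and the calls differ in sign. Including the 9 genes, 7 of 11 tested annexins rose in culture and 2 fell, 5 of 16 S100 genes rose and 2 fell, and of 4 tested Sprr genes 1 rose, which was Sprr1a. Over all genes 27.4% rose and 26.7% fell, and these counts include genes picked for this contrast. Over the alternatives that kept all mice, 5 to 7 annexins and 2 to 5 S100 genes rose, the 2 being those of a stricter filter on low counts, which tests fewer genes. Of the Sprr genes, 1 to 2 rose over these alternatives, and 2 rose without mouse 2.

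Of the 9 genes, 4 lie close together on chromosome 3 of GRCm38, in the epidermal differentiation region: S100a6 at chr3:90612882-90624181, Sprr1a at chr3:92483952-92485895, S100a11 at chr3:93520488-93526287 and S100a10 at chr3:93555080-93564643. Between 90511034 and 93564643 the annotation places 75 protein-coding genes, 14 of them S100 and 15 Sprr genes. Of the other 71, 28 were tested in hepatocyte nuclei, 3 were higher and 2 lower in culture, where 27.4% and 26.7% of all genes were, and 0 reached 10 CPM there. The rest of the genes are elsewhere: Anxa5 at chr3:36448923-36475894, Anxa3 at chr5:96793339-96845966, Anxa2 at chr9:69453620-69491795, Anxa7 at chr14:20455260-20480133 and Anxa1 at chr19:20373428-20390944.

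Proteins known to work with these families were examined as a list of 33 genes (plasminogen activation, transglutaminases and envelope proteins, calpains, membrane repair and receptors), each tested in hepatocyte nuclei. Between Primary Hepatocytes and Liver 15 rose and 3 fell, against 27.4% of all genes higher and 26.7% lower, with a median log2 fold change of 0.57 against 0.04 over all genes. The list was made with earlier results of these data known, so its counts and adjusted p-values are a description, here and below. Plg, plasminogen, fell from 689 ± 227 to 19.6 ± 4.62 CPM (-5.69, SE 0.24, adjusted p = 1.74e-18, edgeR). Plaur, the urokinase receptor, rose from 0.92 to 35.8 ± 15.0 CPM (4.64, SE 0.29, adjusted p = 1.66e-14).

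Of the cross-linking enzymes, Tgm2, tissue transglutaminase, rose from 8.39 ± 2.56 to 213 ± 78.8 CPM (4.09, SE 0.27, adjusted p = 3.37e-14, edgeR). Tgm1, the envelope transglutaminase of keratinocytes, was 1.25 and 2.38 CPM (0.29, adjusted p = 0.492). Ppl, the envelope protein periplakin, rose from 21.3 ± 14.9 to 134 ± 25.6 CPM (2.18, SE 0.36, adjusted p = 4.71e-06). The calpain subunits Capn2 and Capns1 rose with log2 fold changes of 2.54 (SE 0.15, adjusted p = 1.87e-15) and 1.42 (SE 0.13, adjusted p = 1.47e-10).

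Ahnak, a very large scaffold that binds Anxa2 and S100a10, rose from 38.3 ± 11.7 to 151 ± 54.8 CPM (1.42, SE 0.22, adjusted p = 1.76e-06, edgeR), but was -0.45 (adjusted p = 0.0669) on unspliced UMIs alone. From Liver to Cell Suspension it fell, with a log2 fold change of -0.97 (adjusted p = 0.00166), while Tgm2 rose (1.43, adjusted p = 6.04e-05). Fpr2, a receptor of Anxa1, had 3, 2 and 7 UMIs in Liver, Cell Suspension and Primary Hepatocytes (adjusted p = 0.405 between culture and Liver). In all, 2 of the 33 rose and 3 fell from Liver to Cell Suspension, where 7.69% of all genes rose and 13.8% fell. Over the alternatives that kept all mice, 2 to 6 of them rose and 2 to 4 fell. From Cell Suspension to Primary Hepatocytes 15 rose and 3 fell, against 27.6% and 24.0% of all genes. In endothelial nuclei 5 of 26 rose and 6 fell between Liver and culture, where 15.4% and 18.4% of all genes were called. Over the alternatives that kept all mice, 4 to 9 rose and 3 to 7 fell, and 8 rose without mouse 2.

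Position in the liver lobule was not used to choose the genes and was tested. Hepatocyte nuclei of Liver and Cell Suspension were ranked by a score of 10 pericentral and 10 periportal genes after thinning, and the outer tertiles of each sample were compared within mice. Cyp2e1 and Hal, both in the score, were 2471 and 50.0 CPM in the pericentral tertile and 179 and 1118 CPM in the periportal tertile of Liver. At an adjusted p under 0.05, 19.4% of genes in Liver and 12.6% in Cell Suspension differed between the tertiles.

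Anxa7 was higher in pericentral nuclei of Liver, at 67.2 ± 15.1 against 53.3 ± 11.1 CPM (SD, n = 8), in 8 of 8 mice (log2 fold change 0.38, SE 0.06, adjusted p = 5.47e-06, edgeR with the mouse as a block). It was also higher there in Cell Suspension, at 53.5 ± 15.7 against 39.6 ± 11.2 CPM, in 7 of 8 mice (0.47, SE 0.11, adjusted p = 8.58e-04). S100a10 was higher in pericentral nuclei of Liver, at 11.6 ± 2.07 against 8.17 ± 2.92 CPM, in 7 of 8 mice (0.54, SE 0.12, adjusted p = 0.00105). In Cell Suspension it was 9.02 ± 3.33 against 8.92 ± 4.42 CPM, higher in 3 of 8 mice (0.12, SE 0.18, adjusted p = 0.812).

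Without the mouse as a block, no call was made for Anxa7 (adjusted p = 0.129) or S100a10 (adjusted p = 0.121) in Liver, nor for Anxa7 in Cell Suspension (adjusted p = 0.259, edgeR). The difference between the 2 kinds of sample was itself tested, and it was -0.41 (SE 0.21, adjusted p = 0.671, edgeR) for S100a10 and 0.10 (SE 0.13, adjusted p = 0.943) for Anxa7, so neither effect was shown to differ between tissue and suspension. Pericentral nuclei of Liver were deeper, with medians of 5207 to 15367 UMIs per nucleus against 4339 to 11602 UMIs, and its part in these values was not tested. The other genes tested in Liver did not pass the threshold, among them Anxa2 (0.49, adjusted p = 0.373), S100a11 (-0.66, adjusted p = 0.289) and Sprr1a (0.53, adjusted p = 0.776). Anxa6, not one of the 9, leaned to the periportal side, at -0.43 (adjusted p = 1.84e-06) in Liver and -0.30 (adjusted p = 0.0258) in Cell Suspension, a call that was lost in Cell Suspension with DESeq2, on unspliced UMIs alone and without mouse 1, 6 or 8 (-0.27 to -0.25), and in both without the block.

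**Figure D5:**
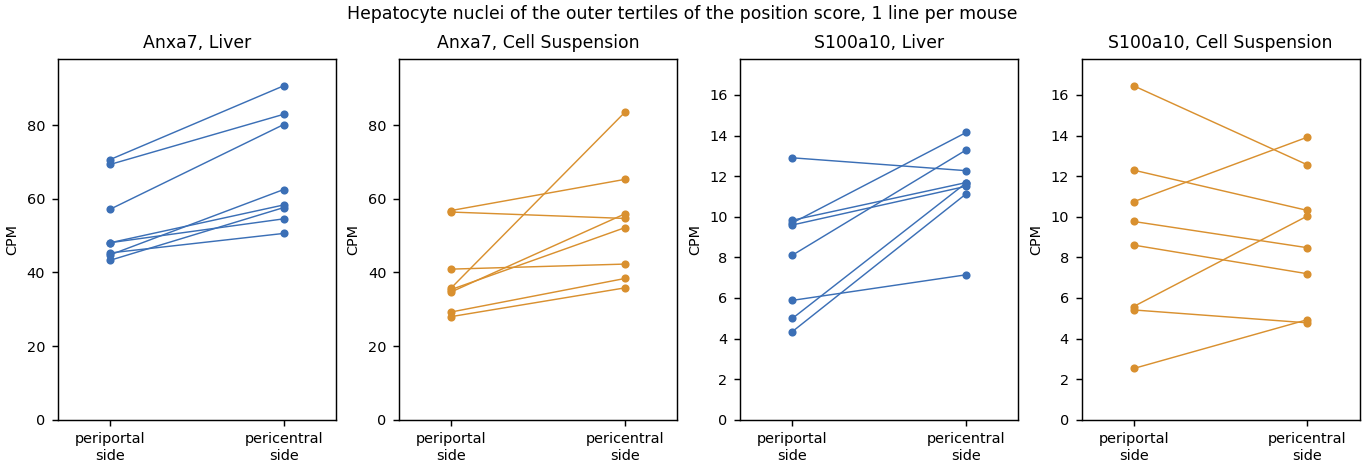
Levels of Anxa7 and S100a10 in CPM (vertical axes) in the periportal and pericentral tertiles of hepatocyte nuclei in Liver and Cell Suspension, with a line for each of 8 mice. The Anxa7 lines go up to the pericentral side in 8 mice in Liver and 7 in Cell Suspension, and those of S100a10 in 7 and 3.

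The genes most like each of the 9 were sought over 108 sums of sample and cell type with at least 20 nuclei. Pearson's r of log2(CPM + 1) was taken among 10100 genes. The 9 themselves were left out of the ranking, so their likeness to each other is not given. These sums share mice, pools and depths, and r is a description. Sprr1a was closest to Lcn2 (r = 0.833), which encodes the secreted protein lipocalin-2, then Vldlr and Cox4i2 (0.819 each). Anxa2 was closest to Pkm (0.782), a glycolytic enzyme, Pfkp (0.743) and Rock2 (0.733). Anxa3 was closest to Acot9 (0.810), Oasl2 (0.782) and Tgm2 (0.761), Anxa5 to Ampd3 (0.718), and Anxa7 to Sec61a2 (0.752). The S100 genes had lower values, with Stk26 (0.711) for S100a6, Pfkp (0.670) for S100a11 and Plscr1 (0.652) for S100a10, and Anxa1 had Ccdc80 (0.611).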

How the data were processed

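The nuclei of 24 samples (8 mice, 3 sample types) were loaded in 6 pools, each as a separate reaction, and then sequenced. The authors converted reads with bcl2fastq 2.19.0, pseudo-aligned them with Salmon Alevin 1.9.0 and Alevin-fry 0.7.0 to a GRCm38 index of spliced and unspliced RNA, assigned hashtags with mclust, removed doublets with scDblFinder and clustered nuclei in Seurat 4.1.1. The matrices the authors deposited give unnormalized counts of UMIs, split into spliced, unspliced and ambiguous, and the deposited table of nuclei gives sample, cluster and cell type. The hashtag CD2 was taken for mouse 2 in Cell Suspension, which has no other hashtag.

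The 3 splicing states were added and UMIs were summed per sample and cell type (at least 10 nuclei). Cultured clusters 0, 1, 14 and 17 were taken as hepatocytes, 12 as endothelial and 27 as stellate cells. Cluster 8 was assigned to no cell type and was kept apart. Hepatocyte sums held 45 Cell Suspension and 2 Liver nuclei annotated as cultured and 73 Primary Hepatocytes nuclei annotated as tissue. Genes with at least 10 counts were tested with edgeR 4.0.16 (R 4.3.3, TMM, quasi-likelihood, 1 coefficient per sample type, Benjamini-Hochberg adjustment, threshold 0.05). Mean TMM factors were 0.916 for tissue, 0.828 for suspension and 1.33 for culture. Zonation used nuclei thinned to 1000 UMIs for the score and the full counts of the outer tertiles, with the mouse as a block. DESeq2 1.42.0 was an alternative. Tables and figures were made with matplotlib 3.10.9, pandas 2.3.3, scipy 1.17.1 and numpy 2.4.6 in Python 3.11.15.

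The 9 genes, the families, the partner list and the marker lists were chosen with earlier results of these data known. Named besides the 9 genes are, by absolute log2 fold change between Primary Hepatocytes and Liver, up to 8 called family genes and up to 8 called partners with at least 10 CPM in either group, plus Ahnak, Tgm1, Tgm2 and Fpr2. For 1 partner that this rule names, single-gene values are not reported here. Likeness names genes outside the 9 of at least 10 CPM on average. The fits were checked on simulated counts. Samples of the same number came from the same liver. Deviations from the sample type's mean over 8722 genes correlated at 0.348 to 0.846 between Liver and Cell Suspension of the same mouse, with a median of 0.043 between Liver and Primary Hepatocytes and 0.020 between Cell Suspension and Primary Hepatocytes.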

Additional observations from a re-analysis of the deposited data

Results flagged for a closer look

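Of 27 sets of 8 values (9 genes in 3 sample types, hepatocyte nuclei), 2 had a sample far from the others by Dixon's ratio, where chance gives about 1 in 20. Anxa1 in Cell Suspension was highest in mouse 8, at 0.373 CPM (ratio 0.579, nearest sample 0.157 CPM). S100a10 in Primary Hepatocytes was highest in mouse 2, at 109 CPM (ratio 0.536, nearest sample 93.9 CPM).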

How the results depend on the processing

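Of the counts of calls under an alternative, 163 stayed within 1.5 times of the reported count and 9 did not. Of the single values, 1031 kept their direction and side of the threshold or stayed within the spread, 31 moved by more, 18 lost their call and 2 reversed. The log2 fold change of Anxa7 in hepatocyte nuclei between Primary Hepatocytes and Liver reversed to -0.091 with the pool as a covariate, and that of Ahnak to -0.446 on unspliced UMIs alone. In endothelial nuclei, the 10 family genes called between Primary Hepatocytes and Liver became 5 with the pool as a covariate and 3 on spliced UMIs alone. The 0 family genes called between Cell Suspension and Liver by edgeR (4 at an unadjusted p under 0.05) became 1 with RLE normalization, 1 with DESeq2, 1 on spliced UMIs alone and 0 to 1 with a mouse left out. In hepatocyte nuclei, the 5 partners called between Cell Suspension and Liver became 10 with the pool as a covariate. The cause was not tested.

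With the mouse as a replicate block, 17 family genes (17 without it) were called between Primary Hepatocytes and Liver, 16 (17) between Primary Hepatocytes and Cell Suspension and 7 (7) between Cell Suspension and Liver, and 17 (18), 18 (18) and 6 (5) partners. The block moved no other count by over 1.5 times, apart from zonation, where leaving it out took the calls from 2 to 0 in Liver and from 1 to 0 in Cell Suspension. With a mouse left out, zonation gave 2 calls in Liver and 1 in Cell Suspension each time.

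Of genes called in hepatocyte nuclei between Cell Suspension and Liver, 35.8% were higher with TMM, 47.1% with RLE and 49.0% with DESeq2. In endothelial nuclei it was 45.6%, 57.0% and 57.0% between Primary Hepatocytes and Liver and 52.1%, 69.0% and 71.0% between Cell Suspension and Liver. The median of all genes there moved from -0.01 to 0.13 and 0.18, and from -0.08 to 0.02 and 0.07. Settings on cluster 8, on nuclei annotated against their sample type and on pools without Primary Hepatocytes were chosen after seeing the data.

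Liver and Primary Hepatocytes share 2 of 6 pools, and the other pools link them only through Cell Suspension, which was in all 6. Anxa1, S100a6 and tissue Sprr1a rest on few UMIs, and intervals and limits cover counting error only.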
